A study of Mus musculus with 2 samples.

Results

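The 86 genes described here are those of the cytosolic ribosomal proteins. They were chosen by symbol among the 32285 mouse genes of the deposited tables, taking Rpl or Rps followed by a digit, Rplp0, Rplp1, Rplp2 and Rpsa, and leaving out the Rps6k kinases and symbols that hold "-ps". Of these, 46 belong to the large subunit, 31 to the small subunit and 8 are paralogs, copies of a ribosomal protein gene such as Rpl3l and Rpl39l. The remaining symbol, Rps19bp1, encodes a binding protein of Rps19 and not a ribosomal protein. The cells were enriched for white blood cells with CD45 magnetic beads, from tumors of 143B, a human osteosarcoma line. It was grown under the skin of female nude mice, which lack a thymus and so most T cells. The mice were 4 weeks old and received 10 mg/kg of a human IgG1 isotype (control IgG) or of anti-CD3L1, a humanized antibody to human CD3L1, every 3 days and 4 times in total. Each group gave 1 droplet library from 3 tumors that were pooled, and the tumor of a given cell is not recorded. No test across samples exists, intervals are at 95% and cover counting error only, and whether a difference comes from the antibody, a tumor or the library cannot be told apart.

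Ribosomal proteins are made in near equal numbers for each ribosome, and their mRNAs are among the most abundant of a cell. Most of these mRNAs begin with a 5′ terminal oligopyrimidine (TOP) motif, a cytosine followed by a run of C and T bases, through which mTOR signaling controls their translation. Cells that grow and divide make many ribosomes, whereas mature neutrophils are short-lived cells that make little new protein. In single-cell work the same share is also read as a measure of RNA quality and of free RNA in droplets.

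The starts of several members show the TOP motif and the kinship of their copies. Windows of 30 bases, 10 before the annotated start and 20 from it on, were read from the RefSeq promoter table (GRCm38.p6), which held 66 of the 86 members. The longest run of C and T bases that begins with C is in capitals. The first 4 are examples with an annotated start at a C followed by at least 4 bases of C or T. That start was found in 14 of the 66 members. Rps27 and Rps27rt are paralogs that share an unbroken run of 38 bases at their starts. Rpl3l and Rpl39l are the paralogs whose summed level, relative to the median member, varied most between cell classes. Both had 0 UMIs in NK-like cells under control IgG, so the size of that variation is uncertain. Rps9 had the highest level and Rpsa the highest library ratio in neutrophil-like cells.
Rps6 (chr4:86857348-86857377, minus strand): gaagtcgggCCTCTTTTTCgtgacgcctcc
Rps18 (chr17:33955646-33955675, minus strand): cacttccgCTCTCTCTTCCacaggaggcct
Rpl35 (chr2:39005112-39005141, minus strand): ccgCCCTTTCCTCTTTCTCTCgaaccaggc
Rpl15 (chr14:18270967-18270996, minus strand): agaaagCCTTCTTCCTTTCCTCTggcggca
Rps27 (chr3:90213629-90213658, minus strand): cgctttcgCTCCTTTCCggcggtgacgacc
Rps27rt (chr9:114982720-114982749, minus strand): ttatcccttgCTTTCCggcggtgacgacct
Rps9 (chr7:3704031-3704060, plus strand): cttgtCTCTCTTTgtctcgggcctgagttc
Rpsa (chr9:120127756-120127785, plus strand): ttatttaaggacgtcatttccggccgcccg
Rpl3l (chr17:24727816-24727845, plus strand): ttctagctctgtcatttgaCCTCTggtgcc
Rpl39l (chr16:10170218-10170247, plus strand): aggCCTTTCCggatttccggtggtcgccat

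An annotated start at a C followed by at least 4 bases of C or T was found in 14 of the 66 members (21.2%) and in 3.01% of the 27025 genes of the table. A run of that kind anywhere in the 30-base window was found in 44 members (66.7%) and in 39.6% of all genes. The letters CCGGAAG, read on both strands over the 300 bases of the table and able to share its AAG with AAGATGG, occurred in 26 members (39.4%) and in 9.93% of all genes. AAGATGG, read the same way, occurred in 10 members (15.2%) and in 7.28% of all genes. A match describes these letters and not a bound site. Rps27 and Rps27rt shared an unbroken run of 38 bases, from base 2 of the first and base 1 of the second. The rest of their mRNAs was not compared. UMIs of this pair may be split between them, and the level of each is uncertain. In the GENCODE M21 annotation, 6 members overlapped another gene on the same strand, Rpl13, Rpl13a, Rpl19, Rpl24, Rpl36al and Rps10.

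Barcodes were kept with at least 500 UMIs, more than 200 and fewer than 6000 genes and under 5% mitochondrial UMIs, which left 8557 cells under control IgG and 11269 under anti-CD3L1. Their medians were 5526 and 8267 UMIs, and 26 barcodes occurred in both. A cell was given a class, such as neutrophil-like, when at least 3 of 8 markers of that class were detected and at least 2 more than of any other, which placed 88.4% and 67.6% of cells. In the 4 classes with at least 50 cells in both libraries, each marker was detected in 24.3% to 97.97% of the cells of its own class. A gate by detected markers depends on the depth of a cell. Cells without a class had medians of 9634.5 UMIs under control IgG and 7649 UMIs under anti-CD3L1. Levels are in CPM, the UMIs of a gene per 1000000 UMIs of the class. UMIs count tagged molecules, and CPM was not divided by gene length.

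Over all cells, ribosomal protein genes held 8.87% of all UMIs under control IgG and 14.9% under anti-CD3L1. The mix of cells differed between the libraries, with 5764 neutrophil-like cells (67.4%) under control IgG and 565 (5.01%) under anti-CD3L1. To exchange the mix, each class was weighted by its part of all UMIs and not by its number of cells. Neutrophil-like cells held 49.7% of UMIs under control IgG and 1.82% under anti-CD3L1. Cells without a class, with 15.6% and 29.8% of UMIs, were weighted as a further class. Such weights also carry the depth of the cells in each class. Anti-CD3L1 weights with control IgG shares gave a ribosomal protein share of 15.0%. The opposite exchange, control IgG weights with anti-CD3L1 shares, gave 9.74%. Over all cells 69 of the 81 members with at least 50 CPM in a library were past 1.5-fold higher under anti-CD3L1, against 42.2% of all genes, and none was past 1.5-fold lower, against 14.1%. Rpl3l, Rpl10l, Rpl39l, Rps27rt and Rps19bp1 did not reach that level, nor did Rpl7l1 in neutrophil-like cells. Here and below, a gene was past 1.5-fold when its ratio was and its whole interval lay on the same side of 1.

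In each library, the ribosomal protein share was lowest in neutrophil-like cells and highest in NK-like cells among the 4 large classes. Neutrophil-like cells held 2.76% (2.75 to 2.76%) under control IgG and 4.85% (4.82 to 4.88%) under anti-CD3L1. Macrophage-like cells held 14.1% (14.0 to 14.1%) of 5627438 UMIs and 14.2% (14.1 to 14.2%) of 32575400 UMIs. Monocyte-like cells, 1180 and 2222 in number, held 14.3% (14.3 to 14.4%) and 13.6% (13.6 to 13.6%). NK-like cells, 148 and 862 in number, held 23.0% (22.9 to 23.0%) and 21.0% (21.0 to 21.0%). The order of macrophage-like and monocyte-like cells was not the same in the 2 libraries, and their shares lay within 1 point of each other. Cells of a class spread widely around these values, from 13.8% at the 10th to 29.0% at the 90th percentile of control IgG NK-like cells and from 7.25% to 19.0% for control IgG macrophage-like cells.

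**Figure D1:**
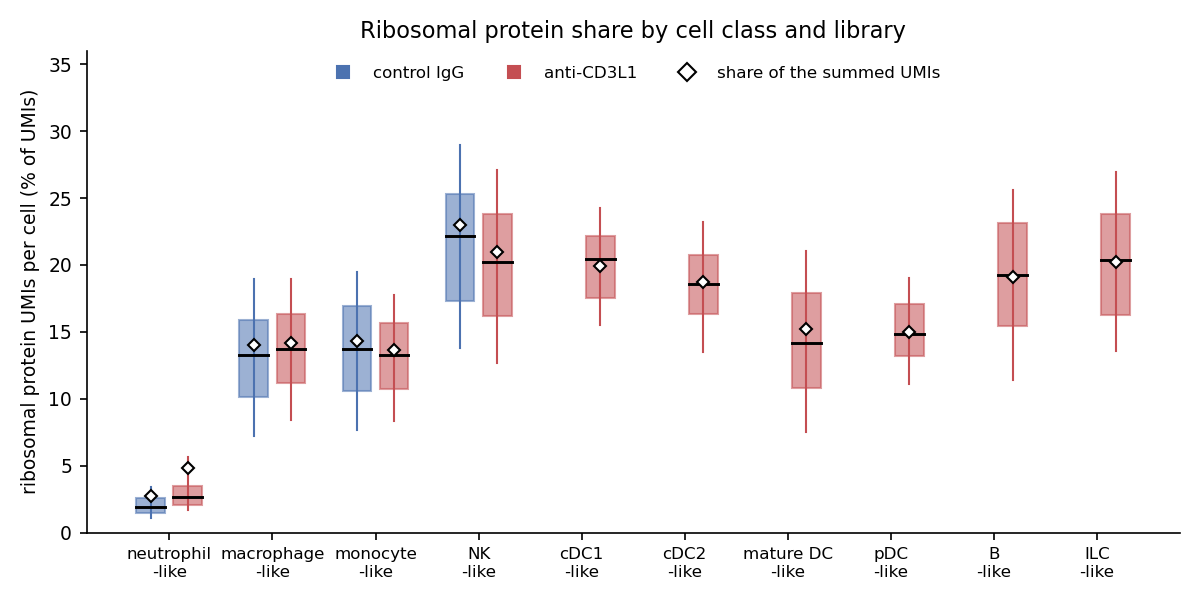
Share of each cell's UMIs in ribosomal protein genes (%), by class and library, for classes of at least 50 cells. Boxes span the 25th to 75th percentile of cells, black lines are medians, thin lines span the 10th to 90th percentile and diamonds are the shares of summed UMIs. Neutrophil-like cells lie at medians of 1.94% and 2.68%, below every other class drawn.

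Other classes reached 50 cells in the anti-CD3L1 library only. There the share was 19.9% in 89 cDC1-like cells, 20.2% in 128 ILC-like cells, 19.1% in 55 B-like cells and 18.7% in 209 cDC2-like cells. It was lower in 91 mature DC-like cells, at 15.2%, and in 165 pDC-like cells, at 15.0%. Droplets taken as empty, with 10 to 100 UMIs, held 11.7% under control IgG and 16.6% under anti-CD3L1. Per cell, the median number of ribosomal protein UMIs was 93 and 58 in neutrophil-like cells, 1869 and 1383 in macrophage-like cells, 1742.5 and 1048 in monocyte-like cells and 2561 and 1792 in NK-like cells.

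The most abundant member over all cells, by the mean of the 2 libraries, was Rps29, a zinc-binding protein of the small subunit, at 3189 CPM under control IgG and 4705 CPM under anti-CD3L1. Rps9, another small subunit protein, followed at 2892 and 3358 CPM. Rplp1, a protein of the acidic stalk that recruits translation factors, had 1819 and 3860.2 CPM. Rpl41, the smallest ribosomal protein, had 2196 and 3481 CPM. Rps27a, which is made as a fusion with ubiquitin, Rpl13, Rpl23, Rps24 and Rps12 had means of the 2 libraries from 2450.1 to 2582 CPM. The 10 most abundant members held 23.8% and 23.3% of all ribosomal protein UMIs. The median member had 1011 CPM and 1813 CPM, and 44 and 65 members had at least 1000 CPM.

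Large and small subunit genes followed the same order of classes. In control IgG macrophage-like cells the median level was 1609 CPM over the 46 large subunit genes and 1876 CPM over the 31 small subunit genes. In neutrophil-like cells of that library the medians were 250.4 and 303 CPM, and in NK-like cells 2516 and 3198 CPM. Within a subunit the range was wide, from 316.8 CPM to 5964 CPM over large subunit genes in control IgG NK-like cells, where Rpl41 was highest. After each cell was thinned to 1000 UMIs, the median cell had a UMI for 15 and 19 of the 86 members in neutrophil-like cells, 59 and 60 in macrophage-like cells, 61 and 60 in monocyte-like cells and 71 and 68 in NK-like cells. Thinning left out 98 and 25 neutrophil-like cells and at most 21 cells of any other class and library. Without thinning, the neutrophil-like medians were 42 and 33 members.

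Neutrophil-like cells had less of nearly every ribosomal protein mRNA than macrophage-like cells of the same library. Of 81 members tested, 80 were past 1.5-fold lower in the control IgG library, against 55.9% of all genes, and 80 in the anti-CD3L1 library, against 43.3%. The median log2 ratio of members was −2.55 and −1.63, beside −0.87 and −0.31 over all genes tested. By subunit the medians were −2.55 and −2.51 for large and small subunit genes under control IgG and −1.63 and −1.66 under anti-CD3L1. The lowest member ratio under control IgG was that of Rpl10a, a large subunit protein of the L1 stalk that moves spent tRNA out of the ribosome, at 88.7 CPM (85.5 to 91.9) against 1011 CPM (985 to 1038). Its log2 ratio was −3.51, and under anti-CD3L1 it was −2.23. Rpl12, at the base of the acidic stalk, had log2 ratios of −3.42 and −2.34.

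Rps9 was the exception in both libraries. It had 2286 CPM (2270 to 2302) in neutrophil-like and 2931 CPM (2886 to 2976) in macrophage-like cells under control IgG (log2 ratio −0.36). Under anti-CD3L1 it had 3089 CPM (3008 to 3172) and 3009.7 CPM (2991 to 3029), with a log2 ratio of 0.038. Rps9 was the most abundant member of neutrophil-like cells in both libraries. The next were Rps27 at 1119.5 CPM and Rps29 at 968 CPM under control IgG, and Rps29 at 1584 CPM and Rps27a at 1469.6 CPM under anti-CD3L1. Relative to the median member of the same cells, the log2 level of Rps9 was 3.20 and 2.59 in neutrophil-like cells and between 0.25 and 1.19 in macrophage-like, monocyte-like and NK-like cells. Among core members, Rps27, a zinc-finger protein of the small subunit, had the next widest range of this relative level, at 2.17 and 1.13 in neutrophil-like cells and between −0.26 and 0.54 in the others. Fau, which encodes the small subunit protein eS30 as a fusion and lies outside the symbol rule, was also near equality, with 3274 and 3966 CPM in neutrophil-like cells against 4140.3 and 4622 CPM in macrophage-like cells, log2 ratios of −0.34 and −0.22. Rps9 overlapped no other gene in the annotation.

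**Figure D2:**
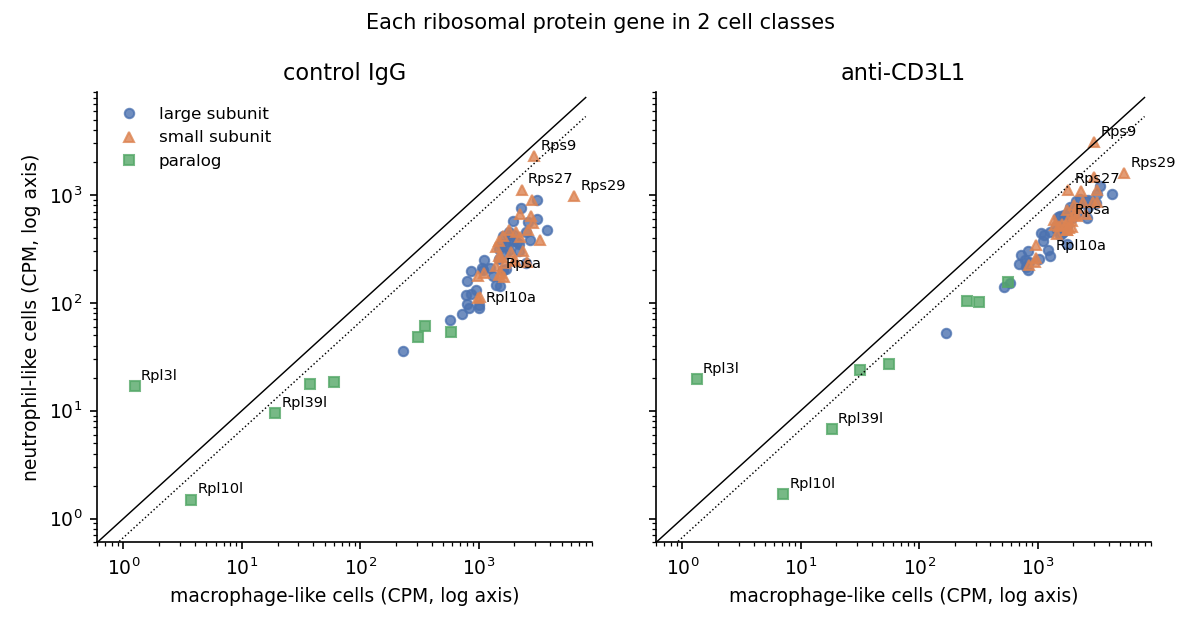
CPM of each member in macrophage-like (x) and neutrophil-like cells (y), both on log axes, in the control IgG and anti-CD3L1 libraries, with symbols for large subunit, small subunit and paralog genes. The solid line marks equal levels and the dotted line 1.5-fold lower; Rps9 lies near equality and Rpl3l above it, while core members other than Rps9 lie under the dotted line.

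Most listed genes of the translation machinery around the ribosome were also lower in neutrophil-like than in macrophage-like cells. Of all genes tested, 55.9% were past 1.5-fold lower and 22.6% higher under control IgG, and 43.3% and 28.5% under anti-CD3L1. Of 14 translation factors and TOP mRNAs that encode no ribosomal protein, such as Eef1a1, the elongation factor that carries tRNA, and Tpt1, all 14 were past 1.5-fold lower in neutrophil-like than in macrophage-like cells in each library. Eef1a1 had 559 and 2828 CPM in these classes under control IgG and 1006 and 2825 CPM under anti-CD3L1. Of 19 ribosome biogenesis genes, 6 reached 50 CPM and all 6 were past 1.5-fold lower in both libraries, among them Ncl, nucleolin, at 92.1 against 563 CPM under control IgG. Genes for the mitochondrial ribosome, a separate machine of 78 listed genes, had 20 of 24 tested past 1.5-fold lower and 2 higher under control IgG, Mrpl33 and Mrpl45, and 27 of 31 lower and Mrpl33 higher under anti-CD3L1.

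NK-like cells had more ribosomal protein mRNA than macrophage-like cells. In the control IgG library 57 of 81 members were past 1.5-fold higher, against 37.7% of all genes, and none lower, against 29.4%. In the anti-CD3L1 library 44 were higher, against 40.6%, and 1 was lower, against 26.7%. This was Rps27l, a copy of Rps27 that p53 is known to induce. The median log2 ratio of members was 0.75 and 0.63, beside 0.24 and 0.32 over all genes tested. Rpsa, the laminin receptor gene whose protein sits on the small subunit, had 3432 CPM (3348 to 3518) in NK-like and 1487 CPM (1455 to 1519) in macrophage-like cells under control IgG (log2 ratio 1.21), and 3814 and 1811 CPM under anti-CD3L1. Rpl22l1, the paralog of Rpl22, a protein needed in lymphocyte development, had log2 ratios of 1.19 and 1.397. Rps29 was lower in NK-like than in macrophage-like cells, at 5628 against 6385 CPM under control IgG and 4406 against 5377 CPM under anti-CD3L1. Of the 14 translation factors, 11 were past 1.5-fold higher in each library.

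Monocyte-like and macrophage-like cells were close. Rplp0, the core of the acidic stalk, was past 1.5-fold higher in monocyte-like cells under control IgG, at 2695 against 1778 CPM. Of all genes, 14.7% were past it higher and 15.7% lower. Under anti-CD3L1 it had 2099 and 1663 CPM. Its partner Rplp1 went the other way, at 2541 against 3796 CPM under control IgG and 2835 against 4269.9 CPM under anti-CD3L1. Rplp1 was past 1.5-fold lower in the anti-CD3L1 library, where 8.34% of all genes were and 12.7% were higher, and had a log2 ratio of −0.58 in the other. The other 80 of 81 members stayed within 1.5-fold in each library.

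Between the libraries, the ribosomal protein share of macrophage-like cells gave a log2 ratio, with anti-CD3L1 over control IgG here and below, of 0.011 (0.0073 to 0.014), and 0 of 81 members were past 1.5-fold in either direction, against 6.83% of all genes higher and 7.01% lower. In monocyte-like cells the log2 ratio was −0.073 (−0.076 to −0.070), and again 0 of 81 members passed, against 9.85% higher and 6.37% lower. These values moved with depth. Macrophage-like cells had medians of 14056 and 9942 UMIs, and monocyte-like cells of 12492 and 7849.5 UMIs. In cells of 2000 to 8000 UMIs the log2 ratio was 0.54 in both classes. That range held 52 and 867 macrophage-like cells, with shares of 8.87% and 12.9%, and 117 and 1131 monocyte-like cells, with shares of 8.91% and 12.96%. There 35 of 81 macrophage-like members were past 1.5-fold higher, against 10.7% of all genes, and 43 of 81 monocyte-like members, against 14.1%. None was past it lower, against 19.3% and 13.9%. In cells of at least 8000 UMIs the shares were 14.3% and 14.4% in macrophage-like and 14.6% and 14.1% in monocyte-like cells.

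Single members still differed within these classes. Rpl35a, a large subunit protein, had 2111 CPM (2073 to 2150) in macrophage-like cells under control IgG and 1422 CPM (1409 to 1435) under anti-CD3L1 (log2 ratio −0.57). It had 2217.5 and 1498 CPM in monocyte-like cells (log2 ratio −0.57) as well. Rpl29 had 230.3 and 168 CPM in macrophage-like cells and Rpl22l1 349 and 251 CPM, log2 ratios of −0.45 and −0.48. Rpl39, the small protein that lines the exit tunnel, had 2081 and 1464 CPM in monocyte-like cells (log2 ratio −0.51). At the other end, Rpl8, beside the peptidyl transferase center, had log2 ratios of 0.35 in both classes, from 1475 to 1874 CPM and from 1539 to 1956 CPM. Rps15, of the small subunit head, had 0.31 and 0.29. Rpl10a had 0.32 in macrophage-like cells, from 1011 to 1266 CPM, and Rpl12 had 0.30 in monocyte-like cells, from 1044 to 1285 CPM. None of these passed 1.5-fold, and their counting intervals lay on 1 side of 0.

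In NK-like cells the share had a log2 ratio of −0.13 (−0.13 to −0.12), and 3 of 81 members were past 1.5-fold lower, against 4.1% of all genes. None was past 1.5-fold higher, against 5.55%. Rps27 had 3448 CPM (3363 to 3534) under control IgG and 2137 CPM (2106 to 2169) under anti-CD3L1 (log2 ratio −0.69). Rpl35a had 2779 and 1806 CPM (log2 ratio −0.62), and Rpl39 had 4091 and 2720.2 CPM (log2 ratio −0.59). The highest ratios were 0.25 for Rpl8, 0.22 for Rps15 and 0.15 for Rpsa. In the 29 and 237 NK-like cells with at most 1 detected marker of any other class, the shares were 20.3% and 20.3% (log2 ratio 0.0013). There 1 of 82 members, Rpl29, was past 1.5-fold lower, against 6.71% of all genes, and none higher, against 8.08%. In the 43 and 366 cells of 2000 to 8000 UMIs, the log2 ratio was 0.10. No member of 82 passed there, against 8.62% of all genes higher and 7.75% lower.

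Some members stood near the same end of the list in several classes and in empty droplets. The log2 ratio of Rps27 was −0.34 in macrophage-like, −0.34 in monocyte-like and −0.69 in NK-like cells, and 0.045 in empty droplets, where the median member had 0.49. Rpl35a had 0.083 in empty droplets and Rpl39 0.20. Rps15 had 0.92 there, Rpl8 and Rpsa 0.79 each and Rpl10a 0.76. Not all members kept their place. Rplp1 and Rpl13a had 0.83 and 0.81 in empty droplets but −0.016 and −0.060 in NK-like cells, where the median member had −0.098. Rpsa had 0.056 in monocyte-like cells and Rpl10a 0.050 in NK-like cells. In empty droplets 23 of 83 members were past 1.5-fold higher, a share near the 28.2% of all genes. None was past it lower, against 18.4%. All 83 ratios were above 0, and the median over all genes tested was above 0 as well, at 0.27. Droplets and cells of 1 library share its free RNA and its preparation, and their part in these orders was not tested.

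**Figure D3:**
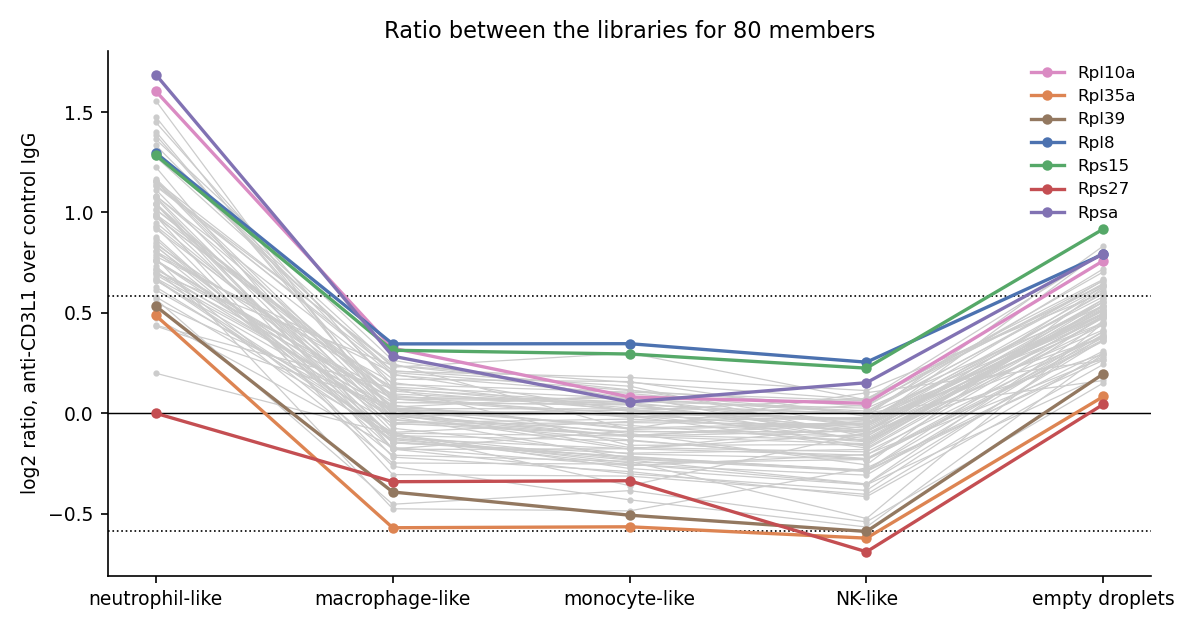
Log2 ratio, anti-CD3L1 to control IgG, for 80 members in the 4 classes and in empty droplets; each line joins the values of 1 gene, with 7 named genes in color and dotted lines at 1.5-fold. Rps27, Rpl35a and Rpl39 lie at or near the lower edge and Rpl8 and Rps15 near the upper edge in macrophage-like, monocyte-like and NK-like cells and in empty droplets.

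In sums over all depths, neutrophil-like cells had the largest library ratio of the 4 classes, while in cells of 2000 to 8000 UMIs their log2 ratio was 0.55, beside 0.54 in macrophage-like and in monocyte-like cells. That range held unlike parts of the classes. Under control IgG it held 4505 of 5764 neutrophil-like, 52 of 398 macrophage-like and 117 of 1180 monocyte-like cells. The summed share of neutrophil-like cells had a log2 ratio of 0.82 (0.81 to 0.83). Of 80 members, 70 were past 1.5-fold higher under anti-CD3L1, against 43.5% of all genes, with none past it lower, against 7.1%. The median log2 ratio was 0.93 over members and 0.48 over all genes tested, so the members lay 0.45 above the shift of the class as a whole. Such sums give more weight to deep cells. Of the 565 anti-CD3L1 cells, the 44 with at least 8000 UMIs held a share of 9.23%, against 2.68% in the median cell. Rpsa had the highest ratio, with 182 CPM (178 to 187) under control IgG and 586 CPM (551 to 623) under anti-CD3L1 (log2 ratio 1.69). Rpl10a followed at 88.7 and 269.6 CPM (246 to 295), with a log2 ratio of 1.604, and then Rpl36al at 53.5 and 157 CPM (log2 ratio 1.56). Rpl11 and Rpl5, named here after their values were seen, which carry the 5S RNA and bind Mdm2 when ribosome assembly fails, had 202 and 509.9 CPM and 97.2 and 227 CPM. Rps6, the target of the S6 kinases, had 177 and 342 CPM (log2 ratio 0.95).

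The 10 members that did not pass were Rps27, Rpl37, Rps9, Rpl41, Rps2, Rpl35a, Rpl39, Rpl24, Rpl29 and Rpl9. Rps27 had 1119.5 CPM and 1119 CPM (log2 ratio −0.00042, −0.066 to 0.065). Rpl37, a zinc-binding large subunit protein, had 759 and 871 CPM (log2 ratio 0.20). Rps9 had a log2 ratio of 0.43 and Rpl9 one of 0.58, just under the limit. Of the 11 translation factors that reached 50 CPM, 8 were past 1.5-fold higher, and Rack1, the scaffold protein of the small subunit, had 146 and 398 CPM.

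The difference in neutrophil-like cells moved with depth and with markers of other classes. The median neutrophil-like cell had 4556 UMIs under control IgG and 2245 UMIs under anti-CD3L1, and a share of 1.94% and 2.68%. Cells of 2000 to 4000 UMIs, 1867 and 263 in number, held 2.33% and 2.40%. The libraries lay further apart in the bins beside it, at 2.09% and 2.97% for 1000 to 2000 UMIs, with 177 and 187 cells, and at 2.02% and 5.00% for 4000 to 8000 UMIs, with 2638 and 46 cells. At 500 to 1000 UMIs, 98 and 25 cells held 1.999% and 3.46%. The 44 anti-CD3L1 cells of at least 8000 UMIs held 9.23%, against 3.79% in 984 control IgG cells. With at most 1 detected marker of any other class, 5383 and 452 cells were left, with shares of 2.17% and 2.88% (log2 ratio 0.41), and 29 of 78 members past 1.5-fold higher, against 38.0% of all genes, a share near that background. With that limit and 2000 to 4000 UMIs together, the shares were 2.27% and 2.40% (log2 ratio 0.078), and 9 of 76 members passed, against 30.5% of all genes. The median log2 ratio there was 0.15 over members and 0.30 over all genes. The 8 macrophage-like markers summed to 97.4 CPM in control IgG and 343 CPM in anti-CD3L1 neutrophil-like cells, and the 8 monocyte-like markers to 136 and 651 CPM. S100a8 and S100a9, abundant neutrophil mRNAs, took 16.2% and 7.36% of the UMIs of the class. Without the 50 most abundant other genes and the mitochondrial genes, the shares were 4.73% and 6.86% (log2 ratio 0.54), and 44 of 80 members passed, against 28.6% of all genes. The part of depth, of RNA from other cells and of these abundant mRNAs in the difference was not tested beyond these values.

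**Figure D4:**
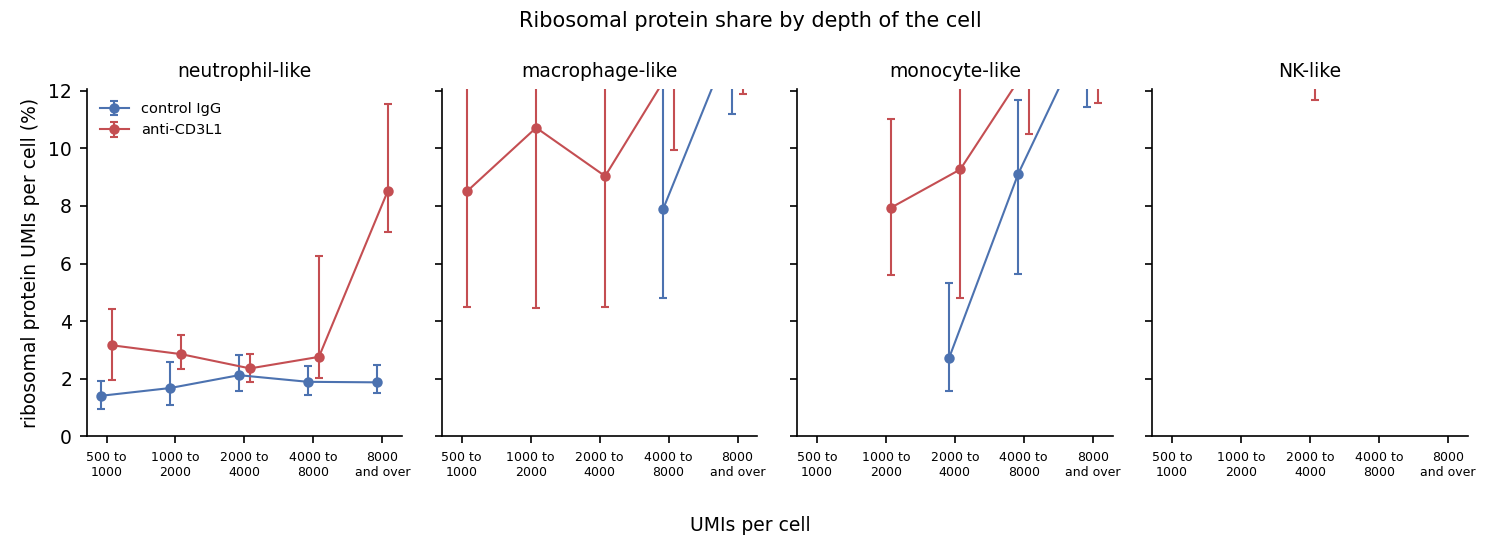
Median share of ribosomal protein UMIs per cell (%), with bars from the 25th to the 75th percentile, by the cell's total UMIs in the 4 classes and both libraries, for bins of at least 20 cells. In neutrophil-like cells of 2000 to 4000 UMIs the medians are 2.12% under control IgG and 2.36% under anti-CD3L1, and at 8000 UMIs and over 1.87% and 8.53%.

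Cycling cells were set apart by at least 3 of 8 cell cycle genes. In macrophage-like cells the share was 17.4% in 22 cycling cells and 13.8% in 376 others under control IgG, and 17.0% in 63 and 14.1% in 3134 under anti-CD3L1. NK-like cells did not show this order, with 22.6% in 23 cycling cells and 23.1% in 125 others under control IgG and 20.5% in 139 and 21.2% in 723 under anti-CD3L1. Cycling cells were deeper, with medians of 18839.5 against 13884 UMIs in control IgG macrophage-like cells and 15869 against 9861 in those under anti-CD3L1.

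Paralogs differed in how widely they were found. Rpl36al, Rpl22l1 and Rps27l were broadly present, from 207 to 799 CPM in macrophage-like, monocyte-like and NK-like cells and from 48.2 to 157 CPM in neutrophil-like cells. Rpl36al supplied 34.4% to 59.3% of the UMIs of the pair it forms with Rpl36a, and Rpl22l1 22.8% to 34.2% of those with Rpl22, over the 4 classes and both libraries. Rpl7l1 had 18.3 to 60.4 CPM and Rps27rt 17.6 to 49.2 CPM. Rpl3l, Rpl39l and Rpl10l were rare and uneven. Near-identical copies can exchange UMIs, so levels within a pair are uncertain.

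Rpl3l, a paralog of Rpl3 known from heart and skeletal muscle, was highest in neutrophil-like cells among the 4 classes. It had 569 UMIs or 17.0 CPM there under control IgG and 35 UMIs or 19.7 CPM under anti-CD3L1. In macrophage-like cells it had 1.24 and 1.32 CPM, a log2 ratio of neutrophil-like over macrophage-like cells of 3.77 and 3.90. Monocyte-like cells lay between, at 6.86 and 4.68 CPM. In NK-like cells it had 0 UMIs under control IgG, where 3 UMIs would be 1.64 CPM, and 2 UMIs under anti-CD3L1. Within the pair, Rpl3l made up 15.1% and 7.22% of the UMIs in neutrophil-like cells and 0.122% and 0.129% in macrophage-like cells. Of the smaller classes under anti-CD3L1, pDC-like cells had 15.2 CPM from 21 UMIs and mature DC-like cells 11.9 CPM from 12 UMIs.

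**Figure D5:**
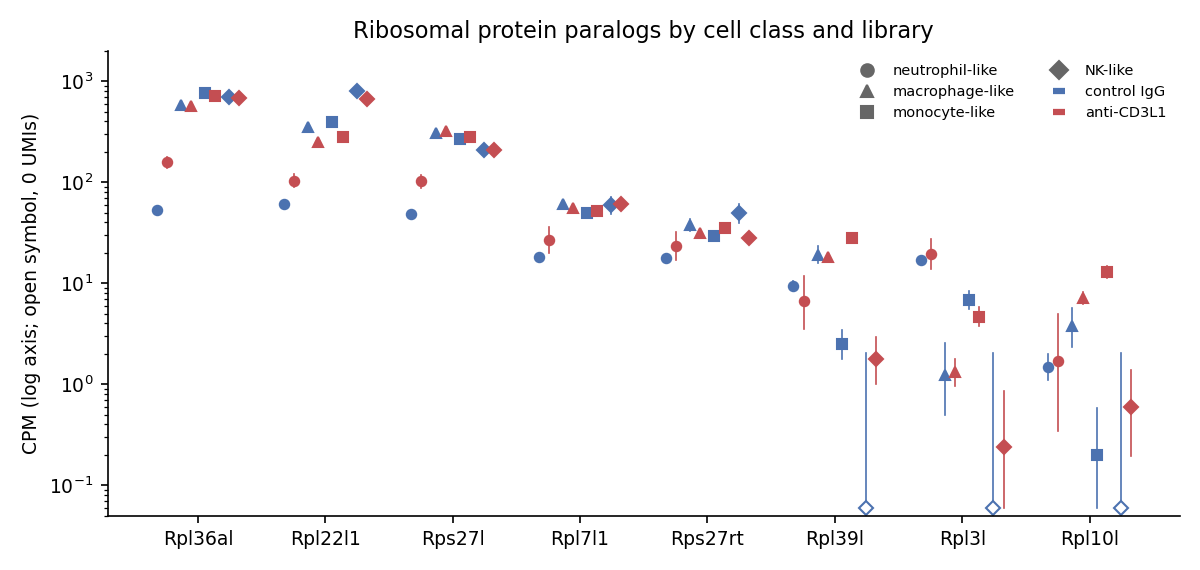
CPM (log axis) of 8 paralogs in the 4 classes (symbols) and both libraries (colors), with vertical lines for the exact Poisson 95% interval and open symbols at the lower edge for 0 UMIs. Rpl3l is highest in neutrophil-like cells, at 17.0 and 19.7 CPM, where Rpl36al, Rpl22l1, Rps27l, Rpl7l1 and Rps27rt are lowest.

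Rpl39l and Rpl10l are copies that are known from the testis. Over all cells Rpl39l had 8.66 CPM under control IgG and 34.3 CPM under anti-CD3L1, and Rpl10l 1.43 and 13.6 CPM. Cells with at least 2 UMIs of Rpl39l, 80 and 131 in number, held 54.9% and 87.7% of its UMIs and also 42.7% and 82.4% of those of Rpl10l, while holding 1.31% and 1.67% of all UMIs. These cells were chosen by their Rpl39l UMIs, so their share of Rpl39l is no finding, and they and the members named in them were chosen after the values were seen. Under control IgG, 50 of the 96 UMIs of Rpl10l were in neutrophil-like cells, near the 49.7% of all UMIs that this class held. In the 131 anti-CD3L1 cells Rpl10l had 669.97 CPM, against 2.43 CPM in the other cells, Rps27rt 697 against 27.1 CPM, Rps27 9439 against 1843 CPM and Rpl10 7644 against 1873 CPM. Rpsa had 1305 against 2228 CPM and Rps26 938 against 1661 CPM, and the share of all members was 23.1% against 14.8%. Ptprc, which encodes the CD45 used in the sort, had 357 CPM in these cells and 797 CPM in the others. Of the 131 cells 62 had no class, 53 were macrophage-like and 9 monocyte-like. Ptprc also differed by class, at 560 CPM in macrophage-like and 1902 CPM in NK-like cells of that library. Of the 80 control IgG cells 33 were neutrophil-like, 23 macrophage-like and 20 had no class. Under control IgG, Ptprc had 1285 CPM in neutrophil-like and 553 CPM in macrophage-like cells. Cells of the same class were not compared. In the 80 control IgG cells the share was 9.70% against 8.86%, Rpl10l had 46.4 against 0.828 CPM, Rps27 2573 against 1776 CPM, and Ptprc 777 against 1039 CPM. Without these cells the log2 ratio of the share was 0.83 in neutrophil-like, 0.0025 in macrophage-like and −0.088 in monocyte-like cells. Whether reads of the human tumor cells were counted as mouse genes in these cells was not tested, so what their levels of Rpl39l, Rpl10l, Rps27rt, Rps27 and Rpl10 stand for is uncertain.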

How the data were processed

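The authors deposited counts of UMIs per gene and barcode for 2 droplet libraries, all barcodes included and unfiltered. The submitters' processing notes name Cell Ranger 7.1.0, Seurat 5.1.0 and GRCm39, and no source used here says whether intronic reads were counted. A further table of the authors' own comparison, with fold changes, p-values and shares of cells, was not used. Barcodes with at least 500 UMIs, more than 200 and fewer than 6000 genes and under 5% mitochondrial UMIs were kept, which left 67296569 UMIs under control IgG and 97909163 under anti-CD3L1. No doublet caller was run. Classes were set by the detection of at least 3 of 8 markers, 2 more than of any other of the 11 classes.

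UMIs were summed per class and library. Intervals were exact (Poisson for CPM, binomial for shares, conditional binomial for ratios) at 95% and cover counting error only. With 1 library per group no p-value was computed. A gene with at least 50 CPM in a library was called past 1.5-fold when the interval also lay on that side of 1. This step was tested on simulated macrophage-like counts with counting error only, so variation between cells, tumors or libraries was not covered. Named are the 10 members of highest mean CPM, the 3 highest and 3 lowest ratios per class, the paralogs with their partners, the 5 members that varied most between classes, and fixed lists of translation, biogenesis, mitochondrial ribosome and cell cycle genes. Others were named for their role or after their values were seen. Members and lists were chosen with earlier results of these data known. Sequences are from RefSeq (GRCm38.p6) and overlaps from GENCODE M21, where 23 members overlapped a gene on the other strand. Gene coordinates from other builds were not used for the counts. Results for some items are not reported here. Alternatives covered the UMI minimum, mitochondrial limit, marker gate, scaling, cell weights, depth, free RNA, fold, CPM minimum and symbols. Python 3.11.15, numpy 2.4.6, scipy 1.17.1, pandas 2.3.3 and matplotlib 3.10.9 were used.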

Additional observations from a re-analysis of the deposited data

Results flagged for a closer look

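In neutrophil-like cells the log2 ratio of the ribosomal protein share, anti-CD3L1 over control IgG, was 0.82, and in NK-like cells it was −0.13. The directions were opposite, and the difference between them was not tested, since each group is 1 library. It did not hold in NK-like cells of 2000 to 8000 UMIs, where the log2 ratio was 0.10.

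Of 5 symbols that the rule left out for their "-ps", 3 had UMIs under anti-CD3L1 at a level above that of the control IgG library. Rpl9-ps6 had 15.2 CPM over all cells under control IgG and 41.4 CPM under anti-CD3L1. Rpl10-ps3 had 10.3 and 26.4 CPM, and Rpl36a-ps1 had 4.65 and 11.98 CPM. Rpl9-ps1 was lower, at 0.431 and 0.266 CPM, and Rpl36-ps4 had 0 UMIs in both libraries. Their symbols name them pseudogenes of members. These levels are sums over all cells, of which neutrophil-like cells were 67.4% under control IgG and 5.01% under anti-CD3L1. In the same sums 69 of 81 members and 42.2% of all genes were past 1.5-fold higher under anti-CD3L1. The 5 symbols stayed below 50 CPM and were outside that count. Whether the 3 higher levels go beyond the change in the mix of cells was not tested.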

How the results depend on the processing

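In neutrophil-like cells the log2 ratio of the share stayed above 0 in every alternative run. It was 0.80 under 10% mitochondrial UMIs, 0.85 with a stricter and 1.05 with a looser gate, 0.54 without the 50 most abundant other genes, 0.55 with cells weighted equally, 0.55 in cells of 2000 to 8000 UMIs, and 1.01 with empty droplets subtracted at 10%. The count of 70 members past 1.5-fold higher (43.5% of all genes) was 44 without the abundant genes (28.6%) and 33 at a fold of 2 (21.6%). Alternatives chosen after seeing the data gave 0.41 and 29 members (38.0% of all genes passed) with at most 1 marker of any other class, 0.078 and 9 members (30.5% of all genes) with that limit at 2000 to 4000 UMIs, 0.92 with free RNA subtracted by the level of C1q, and 0.83 without cells of at least 2 Rpl39l UMIs.

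In macrophage-like cells the ratio was 0.025 under 10% mitochondrial UMIs, 0.016 with a stricter and 0.0010 with a looser gate, 0.0054 without the abundant genes, 0.057 with equal weights, 0.54 at 2000 to 8000 UMIs, and 0.0025 without the Rpl39l cells. It turned to −0.031 with empty droplets subtracted and to −0.012 with at most 1 other marker. The count of 0 members became 35, higher, at 2000 to 8000 UMIs, against 10.7% of all genes. It was 1 with the stricter gate, with empty droplets subtracted and with at most 1 other marker, Rpl35a in each case and lower. Of all genes, 7.73%, 6.98% and 12.4% were past 1.5-fold lower there.

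In monocyte-like cells the ratio was −0.066, −0.091 and −0.068 under the mitochondrial limit, the stricter and the looser gate, −0.12 without the abundant genes, −0.056 with equal weights, −0.13 with empty droplets subtracted, −0.13 with at most 1 other marker and −0.088 without the Rpl39l cells. It turned to 0.54 at 2000 to 8000 UMIs, with 43 members past 1.5-fold higher, against 14.1% of all genes. The count was 1, again Rpl35a and lower, without the abundant genes, with empty droplets subtracted and with at most 1 other marker. Of all genes, 6.51%, 6.09% and 6.84% were past 1.5-fold lower there. With a minimum of 10 CPM it was 2, Rpl10l and Rpl39l and higher, against 12.9% of all genes. In the anti-CD3L1 library, 131 cells chosen by their Rpl39l UMIs, 9 of them monocyte-like, held 82.4% of the Rpl10l UMIs. What the levels of these 2 genes stand for is uncertain.

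In NK-like cells the ratio was −0.14 without the abundant genes, −0.11 with equal weights and −0.16 with empty droplets subtracted. It turned to 0.10 at 2000 to 8000 UMIs and to 0.0013 with at most 1 other marker. The count of 3 members, lower (4.1% of all genes), was 0 at 2000 to 8000 UMIs, against 8.62% of all genes higher and 7.75% lower. At a fold of 2 it was 0, against 1.34% and 1.2%. With at most 1 other marker it was 1, Rpl29 and lower, against 6.71% of all genes. The cause of these turns was not tested. No paired analysis was possible because each group is 1 library. Depth limits the rare paralogs most, where 3 UMIs in control IgG NK-like cells are 1.64 CPM.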
